A study of Mus musculus with 10 samples.

Results

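The 38 genes described here encode the enzymes, regulators and coat proteins that make fatty acids and store them as triglyceride. They were chosen by name, and each was found as 1 gene model in a table of 59408 gene models from mouse liver RNA sequencing. All 38 reached a value of 10 or more in 3 or more of the 10 libraries and were tested with the other models that passed this filter, 18390 in all. Cidea passed through the 3 PSC libraries alone. The livers came from C57Bl/6 mice of 3 groups, collected at day 35. PBC mice (3, numbered 7 to 9) modelled autoimmune primary biliary cholangitis. They were given 100 µg of 2-octynoic acid coupled to albumin (2OA-BSA) into the peritoneum at days 0, 14 and 28, with complete Freund's adjuvant at the start and incomplete adjuvant later. With each of the first 2 doses they also received 2 µg of α-galactosylceramide (α-GalCer) into a vein. PSC mice (3, numbered 11, 13 and 14) modelled non-autoimmune primary sclerosing cholangitis through food with 0.089 percent 3,5-diethoxycarbonyl-1,4-dihydrocollidine (DDC), given for 2 weeks, stopped for 1 week and given again for 1 week. Control mice (4, numbered 1 to 4) were healthy, and no adjuvant, glycolipid or DDC is listed for them. The sources used here give no sex, age, feeding state or hour of collection.

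The liver turns surplus carbohydrate into fat. Citrate leaves the mitochondrion and is split into acetyl-CoA, which acetyl-CoA carboxylase and fatty acid synthase build into palmitate with reducing power from NADPH. Elongases and desaturases lengthen and unsaturate the product, acyltransferases join fatty acids to glycerol, and the triglyceride is kept in lipid droplets under a coat of perilipins and CIDE proteins or exported in lipoproteins. SREBP-1c, the product of Srebf1, and ChREBP, the product of Mlxipl, are the transcription factors that turn on many of these genes after insulin and sugar.

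Depth, recovered from the deposited values, was 38.3 to 95.4 M (mega) reads per library. All levels below are normalised reads. A change is given as the log2 fold change of the value plus 1, with the Benjamini-Hochberg adjusted p of limma over all 18390 models and a threshold of 0.05 for a call. The tissue label matched the data: the summed level of 8 hepatocyte markers was 12 to 17.4 M in PBC livers, 9.15 to 10.7 M in PSC livers and 11.2 to 12.1 M in control livers. The hepatocyte sums of all 3 PSC livers lay below those of all 4 control livers, but the markers did not move together: 4 of the 8 had a positive and 4 a negative log2 fold change in PSC, with a median of 0.04 and 0 called. The low sums came from Alb, at -0.70, adjusted p = 0.222, and Ttr, at -0.71, adjusted p = 0.114, while Fgb was at 0.57, adjusted p = 0.203. The sum of 7 cholangiocyte markers was 54062 to 94874 in PSC livers against 7671 to 13202 in control livers, and that of 7 stellate markers was 53036 to 57106 against 13795 to 21978. The part of these cell types in the results below was not tested. In bulk tissue, fewer cells of a type and less RNA per cell cannot be told apart.

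In PSC livers more of the lipogenic genes were lower than higher, set against control livers. Of the 38 members, 15 fell and 4 passed as higher in PSC, which is 39.5 and 10.5 percent of them, beside 6.48 percent of all tested models lower and 8.25 percent higher. Those lower numbered 9 without PSC 11, 8 without PSC 13 and 7 without PSC 14, and those higher numbered 2 without PSC 13 or 14. Of all models tested in the same fits, 488, 510 and 245 were lower, against 1192 with all libraries. Without PSC 13 and without PSC 14, 896 and 680 of all models were higher, against 1518. One of the 4 higher members is Cidea, which entered the test through its PSC level alone and could not be tested once a PSC library was left out. Among the 37 members that pass the filter without the PSC libraries, 15 fell and 3 rose, 40.5 and 8.11 percent, beside 6.73 and 7.99 percent of the 17712 models that pass in the same way. The median log2 fold change was -0.50 over the members and 0.06 over all tested models. In PBC livers 1 member, Elovl2, fell and 0 rose, beside 2.34 percent of all tested models lower and 7.6 percent higher, and the median was 0.02 over the members and 0.01 over all models. At an unadjusted p under 0.05, limma had 4 members higher and 3 lower in PBC, 10.5 and 7.89 percent of them, beside 16 percent of all models higher and 10.5 percent lower. After adjustment edgeR called 0 higher and 1 lower, beside 6.66 and 1.88 percent of all models, and DESeq2 called 2 higher and 3 lower, beside 9.05 and 4.96 percent. Set directly against each other, PBC livers had 5 members higher and 2 lower than PSC livers, 13.2 and 5.26 percent of the 38, beside 1.11 and 1.13 percent of all models. Those higher numbered 3 without PBC 7 or PSC 14 and 2 without PSC 13, and those lower numbered 1 without PBC 7, PBC 8 or PSC 13 and 0 without PSC 14. All models higher numbered 101 without PBC 7, 72 without PSC 13 and 61 without PSC 14, against 204. All models lower numbered 153 without PBC 7, 206 without PBC 8, 67 without PSC 13 and 43 without PSC 14, against 208. Groups did not overlap for 4 members higher and 15 lower in PSC against control, beside 15.9 and 15.6 percent of all models, for 2 higher and 0 lower in PBC against control, beside 12.7 and 6.89 percent, and for 17 higher and 4 lower in PBC against PSC, beside 14.6 and 12.6 percent. Cidea is 1 of the 4 higher in PSC against control and 1 of the 4 lower in PBC against PSC. The PBC and PSC comparisons with control use the same 4 control livers and are not independent of each other.

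**Figure D1:**
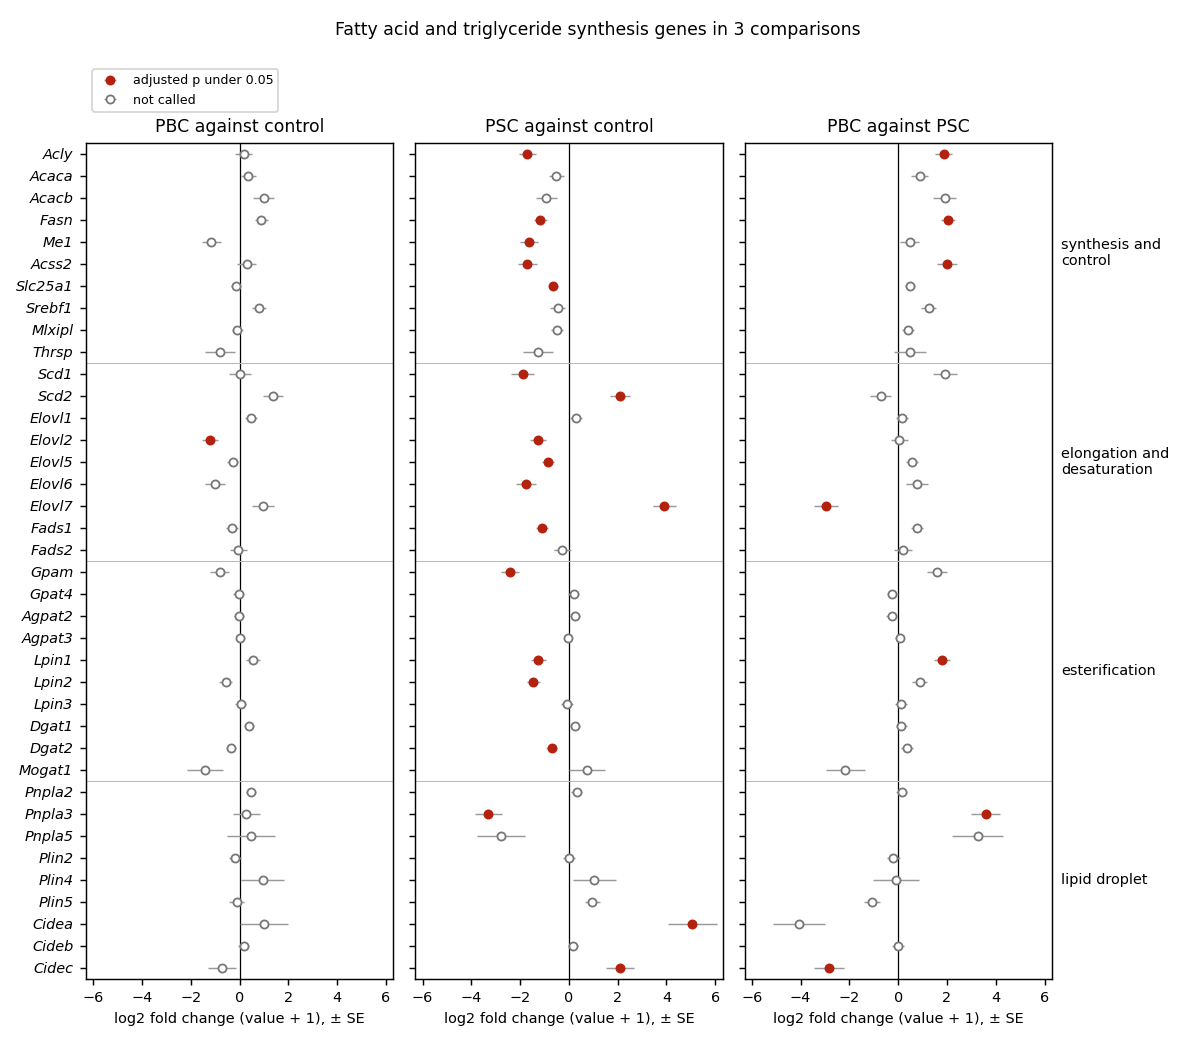
Log2 fold change (horizontal axis) of each of the 38 members (rows, in 4 classes) in PBC against control, PSC against control and PBC against PSC; bars are the standard error and filled points have an adjusted p under 0.05. In the PSC panel 15 filled points lie left of 0 and 4, Cidea among them, right of it, while the PBC panel has 1 filled point, Elovl2.

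Promoter windows of RefSeq (GRCm38.p6, 250 bases before to 50 after a start site) were matched for 31 of the 38 members and not for Cidea, Dgat1, Dgat2, Fads1, Gpat4, Scd1 and Scd2. Some genes have more than 1 window, and the window printed is the 1 at the 5′ end of the gene model. The windows of 4 members that fell in PSC (Fasn, Acss2, Gpam and Pnpla3) and of 1 that rose (Elovl7) are printed 5′ to 3′ on the gene's strand, because these genes carry the widest changes of their classes among those with a window or differ between the models. Capitals mark the CCAAT box, the site of NF-Y, a factor known to act beside SREBP at lipogenic promoters. The searched letters were CCAAT on both strands, so that ATTGG is the same box on the other strand.
Fasn (chr11:120824498-120824797, minus strand): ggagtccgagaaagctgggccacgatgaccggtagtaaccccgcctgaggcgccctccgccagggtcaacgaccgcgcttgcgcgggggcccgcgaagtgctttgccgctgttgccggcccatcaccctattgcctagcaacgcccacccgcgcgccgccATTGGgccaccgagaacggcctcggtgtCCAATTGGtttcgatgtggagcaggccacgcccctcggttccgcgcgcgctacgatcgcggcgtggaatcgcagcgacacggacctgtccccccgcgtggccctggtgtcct
Acss2 (chr2:155517793-155518092, plus strand): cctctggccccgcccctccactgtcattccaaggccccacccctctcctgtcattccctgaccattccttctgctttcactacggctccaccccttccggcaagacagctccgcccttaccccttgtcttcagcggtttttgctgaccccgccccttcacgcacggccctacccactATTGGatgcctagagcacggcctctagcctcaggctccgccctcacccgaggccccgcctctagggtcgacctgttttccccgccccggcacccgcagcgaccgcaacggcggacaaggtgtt
Gpam (chr19:55127189-55127488, minus strand): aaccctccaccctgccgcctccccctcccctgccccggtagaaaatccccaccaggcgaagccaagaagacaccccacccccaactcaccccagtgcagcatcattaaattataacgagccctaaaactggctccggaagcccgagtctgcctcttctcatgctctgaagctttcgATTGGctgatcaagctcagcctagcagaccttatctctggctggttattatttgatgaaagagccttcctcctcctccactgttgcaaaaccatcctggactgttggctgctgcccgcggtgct
Pnpla3 (chr15:84167566-84167865, plus strand): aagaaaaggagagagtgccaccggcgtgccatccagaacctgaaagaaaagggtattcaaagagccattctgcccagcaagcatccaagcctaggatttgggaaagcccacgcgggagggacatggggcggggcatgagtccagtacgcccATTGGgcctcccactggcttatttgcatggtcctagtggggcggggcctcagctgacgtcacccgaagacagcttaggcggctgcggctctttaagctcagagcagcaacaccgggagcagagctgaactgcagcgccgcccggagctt
Elovl7 (chr13:108214154-108214453, plus strand): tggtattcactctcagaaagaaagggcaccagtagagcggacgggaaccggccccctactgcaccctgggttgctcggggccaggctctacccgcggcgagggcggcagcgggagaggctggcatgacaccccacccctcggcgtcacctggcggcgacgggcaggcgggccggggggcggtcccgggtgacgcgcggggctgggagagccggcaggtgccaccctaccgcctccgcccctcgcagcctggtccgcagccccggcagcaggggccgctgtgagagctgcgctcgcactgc
Fasn held 3 boxes, of which 2 overlap as CCAATTGG, and Acss2, Gpam and Pnpla3 held 1 each. The Elovl7 window held 0. Of the 31 matched members 19 had at least 1 box in any of their windows, against 41.1 percent of all 27025 genes with a window. They were 9 of the 12 matched members that fell in PSC, 0 of the 2 that rose and 10 of the other 17. Among those that fell, Me1 and Lpin2 had boxes only in windows inside the gene model. These windows begin at 86687228 for Me1, whose model has its 5′ end at 86695914, and at 71204404 for Lpin2, whose model starts at 71182558. The only box of Acly, which also fell, began at base 38 after the start site and not before it. In any window, the sterol response element TCACNCCAC was in 1 member, Mlxipl, against 1.44 percent of genes, and the E-box CACGTG was in 7 members, against 8.09 percent of genes. The Mlxipl element was also in a window inside the model, from 135106641, while the model starts at 135089890. A match is a run of letters in the window and shows no binding.

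Among the 10 genes of synthesis and its control, 5 fell in PSC and 0 rose, beside 6.48 percent of all tested models lower and 8.25 percent higher. All 10 had a negative log2 fold change, from -1.71 to -0.46, with a median of -1.05. Fasn (GSMG0007757, chromosome 11, 120805958 to 120824547 on mm10), the fatty acid synthase that makes palmitate, had 20409, 11013 and 10995 normalised reads in PBC livers, 4217, 2428 and 3334 in PSC livers and 5382, 9006, 8054 and 7315 in control livers. All 3 PSC values lay below, and all 3 PBC values above, every control value. Fasn fell by 1.17 log2 units (SE 0.27, adjusted p = 0.0121) in PSC against control. In PBC against control its log2 fold change was 0.89 (SE 0.27, adjusted p = 0.053, 95% interval 0.31 to 1.47), just short of the threshold. Between the models it was higher in PBC than in PSC by 2.06 log2 units (SE 0.29, adjusted p = 0.00282), a 4.17-fold difference. The fall in PSC was lost without PSC 13 or 14 (adjusted p from 0.0531 to 0.0668), and the PBC value was called without control 2, without PBC 8, with DESeq2, with a pseudocount of 10 or with the stricter filter (adjusted p from 0.0283 to 0.049).

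Acly (GSMG0007393, chromosome 11, 100476352 to 100528000), the enzyme that splits citrate into cytosolic acetyl-CoA, had 23067, 22089 and 16860.2 normalised reads in PBC livers, 8667, 4205 and 4927 in PSC livers and 14222, 11002, 28708 and 25094 in control livers. The PSC livers again lay below all others, while PBC and control livers overlapped. Acly fell by 1.70 log2 units (SE 0.33, adjusted p = 0.00539) in PSC, 3.25-fold lower than in control livers, and this call held in all 18 alternatives tried. In PBC against control the log2 fold change was 0.16 (SE 0.33, adjusted p = 0.8, 95% interval -0.56 to 0.88), and PBC exceeded PSC by 1.86 log2 units (SE 0.36, adjusted p = 0.0161), a call lost without PBC 7 or without PSC 13 or 14 (adjusted p from 0.0601 to 0.0919). Acss2, which makes acetyl-CoA from acetate, had 29928, 13375 and 22469.7 normalised reads in PBC livers, 5538, 3877 and 6473 in PSC livers and 12678, 8883, 28462 and 25959 in control livers. It fell by 1.71 log2 units (SE 0.39, adjusted p = 0.0118) in PSC with no overlap, and PBC exceeded PSC by 2.01 log2 units (SE 0.42, adjusted p = 0.024). The PSC call was lost without PSC 13 (adjusted p = 0.0573) and the call between the models without PBC 7 or 9 or without PSC 11, 13 or 14 (adjusted p from 0.0669 to 0.125). The Acss2 model overlaps that of Gss over 33.3 percent of its span, and the sources used here do not say whether counting used strand.

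Slc25a1, the carrier that exports citrate from mitochondria, had 13182, 11065 and 14416 normalised reads in PBC livers, 9029, 8546 and 10166 in PSC livers and 13141, 11705, 15215 and 17854 in control livers. The PSC range ended below the lowest control liver, and Slc25a1 fell by 0.63 log2 units (SE 0.19, adjusted p = 0.0406), the smallest of the 19 called PSC changes. That call was lost without control 1, 3 or 4, without PBC 7, without PSC 11, 13 or 14 or with no filter on low values (adjusted p from 0.0532 to 0.145). Me1, the malic enzyme that supplies NADPH, had 3807, 4667 and 4678 normalised reads in PBC livers, 2651, 3228 and 3686 in PSC livers and 4268, 8464, 12888 and 19367 in control livers. PSC livers lay below every control liver, and PBC livers overlapped with control 1 alone. Me1 fell by 1.63 log2 units (SE 0.38, adjusted p = 0.0132) in PSC, a call lost without PSC 11 (adjusted p = 0.0619). In PBC the log2 fold change was -1.16 (SE 0.38, adjusted p = 0.0692, 95% interval -1.97 to -0.34), and it was called without control 1, with edgeR or with DESeq2 (adjusted p from 0.0033 to 0.0371).

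Acaca, the cytosolic acetyl-CoA carboxylase that makes malonyl-CoA for synthesis, had 12068, 5522 and 10859 normalised reads in PBC livers, 5802, 3888 and 5160.2 in PSC livers and 4377, 6750.5, 10859 and 7432 in control livers. The groups overlapped in each comparison. Its log2 fold change was 0.36 (SE 0.32, adjusted p = 0.502, 95% interval -0.32 to 1.04) in PBC and -0.52 (SE 0.32, adjusted p = 0.295, 95% interval -1.20 to 0.16) in PSC, so a fall in PSC of the size seen for Fasn lies inside the interval. Acacb, the carboxylase at the mitochondrial surface whose malonyl-CoA restrains fatty acid oxidation, ranged over 1522 to 4586 normalised reads in PBC livers, 497 to 1238 in PSC livers and 1035 to 3037 in control livers. PBC and PSC livers did not overlap for Acacb, and the log2 fold change between them was 1.91 (SE 0.47, adjusted p = 0.0526, 95% interval 0.90 to 2.91), which was called without control 3, without PBC 8, with edgeR, with DESeq2, with a pseudocount of 10, with libraries scaled to equal totals or with the compared groups alone in the fit (adjusted p from 0.0017 to 0.0481).

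Srebf1 had 20668, 29223 and 28037 normalised reads in PBC livers, 16789, 9426 and 7947 in PSC livers and 11281, 15537, 11917 and 23366 in control livers. All 3 PBC livers lay above all 3 PSC livers, and both groups overlapped with control livers. Its log2 fold change was 0.79 (SE 0.30, adjusted p = 0.105, 95% interval 0.15 to 1.43) in PBC, -0.46 (SE 0.30, adjusted p = 0.319, 95% interval -1.10 to 0.18) in PSC and 1.25 (SE 0.32, adjusted p = 0.0593, 95% interval 0.57 to 1.93) between the models. The PBC value was called without control 4 (adjusted p = 0.0393), and the difference between the models without control 4, without PSC 11, with DESeq2, with a pseudocount of 10 or with the compared groups alone in the fit (adjusted p from 0.0208 to 0.0452). Mlxipl ranged over 5950.2 to 8843 normalised reads in PBC livers, 4373 to 5752 in PSC livers and 5112 to 10057 in control livers, with a log2 fold change of -0.49 in PSC (adjusted p = 0.179). Thrsp, a carbohydrate-responsive gene whose product takes part in lipogenesis, ranged over 45824 to 96957 normalised reads in PBC livers, 29628 to 70442 in PSC livers and 32859 to 264100.5 in control livers, and its log2 fold change in PSC (-1.29, adjusted p = 0.179) was called without control 2 (adjusted p = 0.0374).

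**Figure D2:**
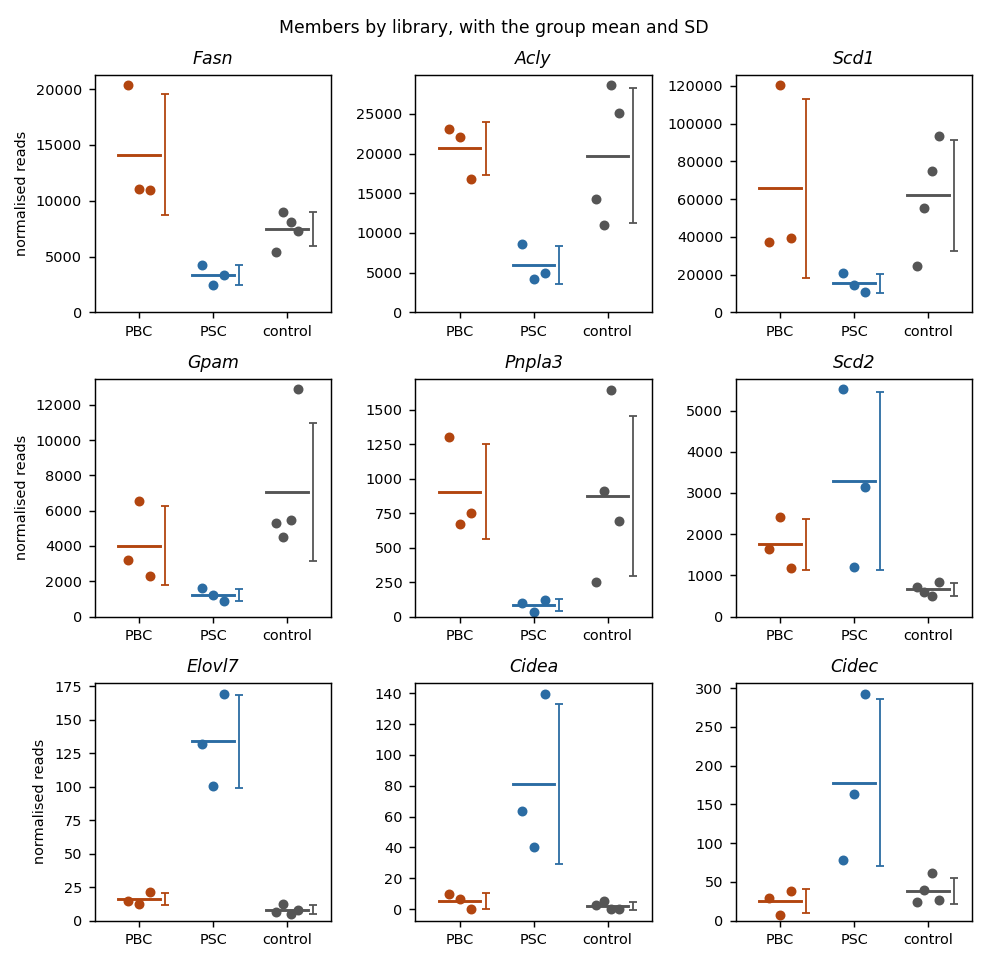
Normalised reads (vertical axis) of 9 members in each PBC, PSC and control liver (points), with the group mean (horizontal line) and its SD (bar at the right of the points). The PSC points lie below all control points for Fasn, Acly, Scd1, Gpam and Pnpla3 and above all control points for Scd2, Elovl7, Cidea and Cidec.

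In the class of desaturases and elongases, 5 of 9 members fell in PSC and 2 rose, beside 6.48 and 8.25 percent of all tested models. Scd1 (GSMG0020429, chromosome 19, 44394450 to 44407709), the main hepatic stearoyl-CoA desaturase, which makes oleate, had 37169.8, 120544 and 39415 normalised reads in PBC livers, 20875, 14604 and 10942 in PSC livers and 24828, 55239, 75008 and 93539.7 in control livers. The highest PSC liver lay below the lowest control liver, and PBC 8 had the highest level of all 10 livers. Scd1 fell by 1.90 log2 units (SE 0.47, adjusted p = 0.0171) in PSC, 3.73-fold lower, a call lost without PSC 13 or 14 (adjusted p from 0.0548 to 0.0938). In PBC its log2 fold change was 0.01 (adjusted p = 0.992), and the sign changed with TMM scaling, with equal totals and without control 1 or PBC 8. Scd2, a second desaturase better known from brain and early life, had 1646, 2427 and 1189 normalised reads in PBC livers, 5521, 1208 and 3152 in PSC livers and 714, 598, 490.5 and 846 in control livers. Every PBC and every PSC liver exceeded every control liver. Scd2 rose by 2.09 log2 units (SE 0.41, adjusted p = 0.00559) in PSC, 4.25-fold higher, in all alternatives, and by 2.68 without PSC 13. In PBC its log2 fold change was 1.37 (SE 0.41, adjusted p = 0.0515, 95% interval 0.49 to 2.26), called without PSC 11 or 13, with DESeq2, with a pseudocount of 10, with the stricter filter or with the compared groups alone in the fit (adjusted p from 0.0121 to 0.0489).

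Reads that Scd1, Scd2, Scd3 and Scd4 have in common may have been split between them, and a model with no symbol covers 100 percent of the Scd2 span with a mean of 3.75 normalised reads. Per kilobase of exon, Scd2 made up 3.81, 1.77 and 2.63 percent in PBC livers, 19.1, 6.9 and 20.5 percent in PSC livers and 2.51, 0.961, 0.582 and 0.803 percent in control livers of the summed Scd1 and Scd2 level. The lowest PSC share, in PSC 13, was still above the highest PBC and control shares.

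Elovl6, the elongase that turns palmitate into stearate, had 14152, 8274 and 8077 normalised reads in PBC livers, 7793, 4141 and 6031 in PSC livers and 12097, 10841, 27308 and 41274 in control livers. It fell by 1.76 log2 units (SE 0.41, adjusted p = 0.0141) in PSC with no overlap, a call lost without PSC 13 or 14 (adjusted p from 0.0567 to 0.0669), and in PBC its log2 fold change was -0.998 (adjusted p = 0.142), called with DESeq2 (adjusted p = 0.0302). Elovl2, an elongase of long polyunsaturated fatty acids on the way to docosahexaenoic acid, had 3029, 9857 and 3766 normalised reads in PBC livers, 4158, 6005 and 4059 in PSC livers and 9705, 10224, 11406 and 13758 in control livers. All 3 PSC livers and PBC 7 and 9 lay below every control liver, and PBC 8 lay within the control range. Elovl2 fell by 1.21 log2 units (SE 0.33, adjusted p = 0.0354) in PBC and fell by 1.26 log2 units (SE 0.33, adjusted p = 0.023) in PSC. The PBC call was lost without control 1, 3 or 4, without PBC 7 or 9, without PSC 11 or 14, with edgeR, with libraries scaled to equal totals or with the compared groups alone in the fit (adjusted p from 0.0502 to 0.156), and the PSC call without control 4, without PSC 11 or 14 or with libraries scaled to equal totals (adjusted p from 0.0511 to 0.106).

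Elovl5, the elongase that precedes Elovl2 in that pathway, had 6965, 13361 and 8005 normalised reads in PBC livers, 6103, 7003 and 5328 in PSC livers and 10368, 11422, 13084 and 9667 in control livers. PSC livers lay below every control liver. Elovl5 fell by 0.86 log2 units (SE 0.23, adjusted p = 0.024) in PSC, a call lost without control 1, without PSC 11 or 14 or with libraries scaled to equal totals (adjusted p from 0.05 to 0.124). Fads1, the delta-5 desaturase of polyunsaturated fatty acids, had 6921, 11041 and 7277 normalised reads in PBC livers, 4824, 4977 and 4577 in PSC livers and 9754, 9410.1, 7837 and 15592 in control livers. The PSC values lay close together below all control values, and Fads1 fell by 1.10 log2 units (SE 0.24, adjusted p = 0.00924), a call lost without PSC 14 (adjusted p = 0.0526). Fads2, the delta-6 desaturase, overlapped between PSC and control livers, with a log2 fold change of -0.26 (SE 0.35, adjusted p = 0.652, 95% interval -1.01 to 0.48).

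Elovl7 (GSMG0010166, chromosome 13, 108214404 to 108287105), an elongase of very long saturated fatty acids, was a gene of low level, with 14.9, 12.8 and 21.2 normalised reads in PBC livers, 132, 100.3 and 169 in PSC livers and 6.48, 12.8, 5.11 and 8.33 in control livers. Each PSC liver had more than 4 times the highest PBC level. It rose by 3.91 log2 units (SE 0.46, adjusted p = 0.000173) in PSC, 15.1-fold higher on the scale of reads plus 1, and the estimate became 2.97 with a pseudocount of 10. PBC was lower than PSC by 2.96 on the log2 scale (SE 0.49, adjusted p = 0.00696), a call lost without PSC 14 (adjusted p = 0.0711). The cholangiocyte sums given above did not overlap between PSC and the other groups either, and their part in the Elovl7 level was not tested. Elovl1, which has the same kind of substrates, ranged over 1727 to 2205 normalised reads in PBC livers, 1457 to 2239 in PSC livers and 945 to 1832 in control livers and passed in no comparison.

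**Figure D3:**
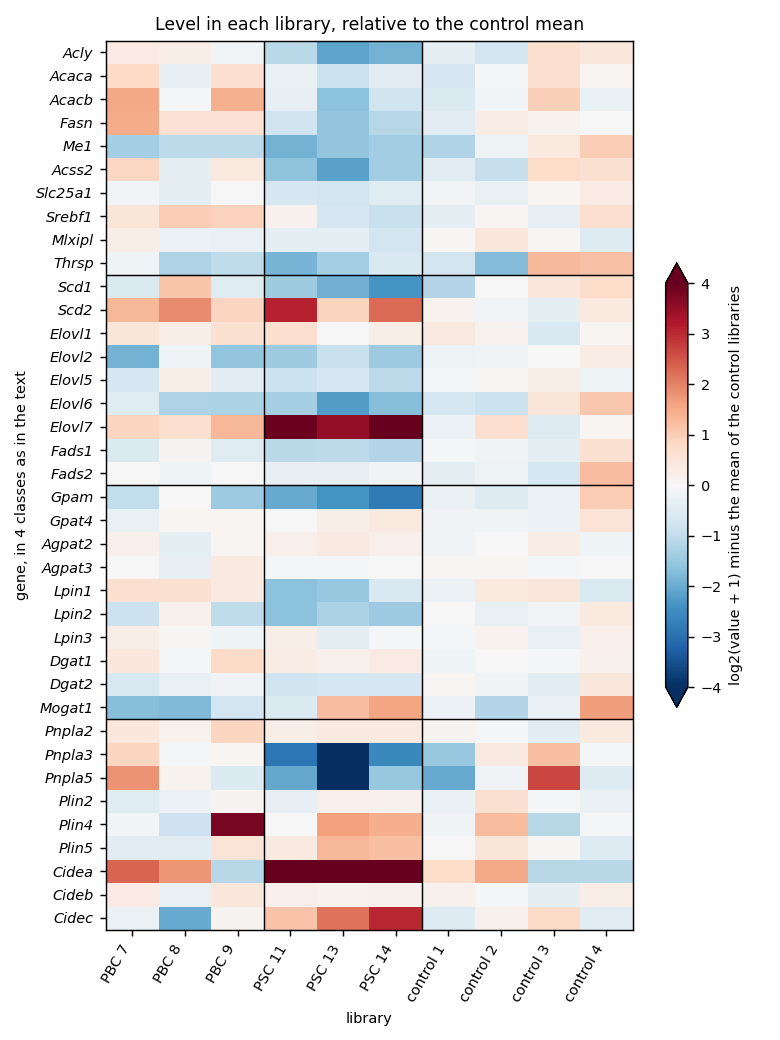
Heat map of log2(normalised reads + 1) minus the control mean for the 38 members (rows) in the 3 PBC, 3 PSC and 4 control livers (columns), with colours saturating at 4 in either direction. The PSC columns are blue across most synthesis genes and red for Scd2, Elovl7, Cidea and Cidec, and PBC 8 differs from PBC 7 and 9 for Scd1, Elovl2 and Gpam.

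Among the 10 esterification genes, 4 fell in PSC and 0 rose, beside 6.48 and 8.25 percent of all tested models. Gpam (GSMG0020534, chromosome 19, 55067268 to 55127238), the mitochondrial glycerol-3-phosphate acyltransferase that starts glycerolipid synthesis, had 3213, 6536 and 2315 normalised reads in PBC livers, 1596, 1208 and 894 in PSC livers and 5297, 4489, 5499.9 and 12877 in control livers. The highest PSC liver lay below the lowest PBC and control livers. Gpam fell by 2.42 log2 units (SE 0.39, adjusted p = 0.00166) in PSC, 5.34-fold lower, in all 18 alternatives. In PBC its log2 fold change was -0.81 (SE 0.39, adjusted p = 0.201, 95% interval -1.64 to 0.02), called without PBC 8 (adjusted p = 0.0404), and between the models the log2 fold change was 1.61 (SE 0.41, adjusted p = 0.0643, 95% interval 0.71 to 2.50), called without control 4, without PBC 9, with DESeq2, with a pseudocount of 10 or with the compared groups alone in the fit (adjusted p from 0.00502 to 0.0476). Gpat4, the acyltransferase of the endoplasmic reticulum for the same step, ranged over 3449 to 4496 normalised reads in PBC livers, 4141 to 5507 in PSC livers and 3597 to 6111 in control livers, with a log2 fold change in PSC of 0.19 (SE 0.22, adjusted p = 0.585, 95% interval -0.27 to 0.66). Per kilobase of exon, Gpam held 48.3, 59.5 and 34.0 percent in PBC livers, 27.9, 19.7 and 14.0 percent in PSC livers and 58.3, 54.1, 60.5 and 67.9 percent in control livers of the summed level of the pair, so that the PSC shares lay below those of every other liver.

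The lipins turn phosphatidate into diacylglycerol. Lpin1, which also acts as a coregulator of transcription, had 2502, 2468 and 2074 normalised reads in PBC livers, 515, 561 and 1058 in PSC livers and 1354, 2096, 2179 and 1068 in control livers. All PSC livers lay below all control livers, if narrowly for PSC 14 and control 4. Lpin1 fell by 1.25 log2 units (SE 0.29, adjusted p = 0.0142) in PSC, and PBC exceeded PSC by 1.79 log2 units (SE 0.32, adjusted p = 0.00938). These calls were lost without PSC 11 or 13 (adjusted p from 0.066 to 0.0736) for PSC against control and without PSC 11 or 13 (adjusted p from 0.0506 to 0.06) for PBC against PSC. Lpin2 had 696, 1442 and 633 normalised reads in PBC livers, 409, 535 and 463 in PSC livers and 1271, 1041, 1196 and 1685 in control livers. PSC livers lay below all others. Lpin2 fell by 1.45 log2 units (SE 0.28, adjusted p = 0.00492) in PSC in all 18 alternatives, and its log2 fold change in PBC (-0.57, adjusted p = 0.212) was called without PBC 8 (adjusted p = 0.014). Lpin3 ranged over 289.9 to 388 normalised reads in PBC livers, 249 to 383 in PSC livers and 266 to 372 in control livers, with a log2 fold change in PSC of -0.07 (SE 0.23, adjusted p = 0.866, 95% interval -0.58 to 0.43). Its share of the 3 lipins per kilobase was 25.0, 19.5 and 22.8 percent in PBC livers, 54.4, 39.8 and 36.4 percent in PSC livers and 26.0, 24.4, 18.2 and 28.9 percent in control livers.

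Dgat2, the diacylglycerol acyltransferase that favours newly made fatty acids in the liver, had 15970.1, 19726 and 21985 normalised reads in PBC livers, 14081, 15155 and 15179.9 in PSC livers and 25696, 22010.0, 18283 and 33479.9 in control livers. It fell by 0.71 log2 units (SE 0.22, adjusted p = 0.0414) in PSC with no overlap, a call lost without control 1, 2 or 4, without PSC 11, 13 or 14, with libraries scaled to equal totals or with no filter on low values (adjusted p from 0.0556 to 0.129). In PBC its log2 fold change was -0.35 (SE 0.22, adjusted p = 0.328, 95% interval -0.81 to 0.12). Dgat1, its counterpart, ranged over 792 to 1384 normalised reads in PBC livers, 907 to 1016 in PSC livers and 727 to 912 in control livers, and its log2 fold change in PSC was 0.26 (SE 0.21, adjusted p = 0.437, 95% interval -0.19 to 0.71). Agpat2 and Agpat3 acylate lysophosphatidate. Agpat2 ranged over 26912 to 39647 normalised reads in PBC livers, 39213 to 44209 in PSC livers and 30645 to 42579 in control livers, with a log2 fold change in PSC of 0.25 (SE 0.20, adjusted p = 0.435, 95% interval -0.18 to 0.68). Agpat3 ranged over 6093 to 9803 normalised reads in PBC livers, 7234 to 7704 in PSC livers and 7186 to 7908 in control livers, with a log2 fold change in PSC of -0.04 (SE 0.18, adjusted p = 0.916, 95% interval -0.42 to 0.35). Mogat1, which acylates monoacylglycerol, was low everywhere, with 4.78 to 61.1 normalised reads, and passed in no comparison.

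In the lipid droplet class, 1 of the 8 members that pass the filter without the PSC libraries rose in PSC, Cidec, and 1 fell. Each is 12.5 percent, beside 7.99 percent higher and 6.73 percent lower of all models that pass in the same way. Cidea, the ninth, is described below. Pnpla3 (GSMG0013462, chromosome 15, 84167816 to 84189521), a droplet-bound lipid hydrolase and known SREBP-1c target, had 1298, 671 and 747 normalised reads in PBC livers, 94.7, 32.4 and 118 in PSC livers and 251, 910.1, 1643 and 691 in control livers. The highest PSC liver lay below the lowest control liver, control 1, and far below every PBC liver. Pnpla3 fell by 3.30 log2 units (SE 0.56, adjusted p = 0.00217) in PSC, 9.87-fold lower and the widest fall of the 38 genes. PBC exceeded PSC by 3.58 log2 units (SE 0.59, adjusted p = 0.00696), and both calls held in all 18 alternatives. In PBC against control the log2 fold change was 0.28 (SE 0.56, adjusted p = 0.791, 95% interval -0.92 to 1.47). Pnpla5, a related hydrolase, had 418, 131 and 80.4 normalised reads in PBC livers, 28.1, 3.23 and 41.1 in PSC livers and 28.5, 109, 761 and 83.3 in control livers, and its log2 fold change in PSC (-2.80, adjusted p = 0.074) was called without control 1 or with DESeq2 (adjusted p from 0.0274 to 0.0417) and was -3.47 without control 1. Pnpla2, the adipose triglyceride lipase that opens the breakdown of stored fat, ranged over 2514 to 4133 normalised reads in PBC livers, 2706 to 2947 in PSC livers and 1678 to 2997 in control livers and passed in no comparison.

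Cidea and Cidec encode proteins that fuse lipid droplets and are best known from fat tissue. Cidea (GSMG0018528, chromosome 18, 67343564 to 67367794) had 9.95, 6.37 and 0 normalised reads in PBC livers, 63.8, 40.4 and 139.7 in PSC livers and 2.59, 5.13, 0 and 0 in control livers. Control 3, control 4 and PBC 9 were at 0, and the lowest PSC liver was above the highest of the others. The log2 fold changes were 5.06 in PSC against control and -4.06 in PBC against PSC, and with a pseudocount of 10 they were 2.81 and -2.47. They are given as a description with no test, because Cidea passed the filter on low values only through the PSC libraries, and in no fit that left out one of them. Cidec had 29.8, 7.97 and 38.1 normalised reads in PBC livers, 78.8, 163 and 293 in PSC livers and 24.6, 39.8, 61.3 and 26.4 in control livers. PSC livers again exceeded all others, and Cidec rose by 2.10 log2 units (SE 0.58, adjusted p = 0.0287) against control, while PBC was lower than PSC by 2.83 on the log2 scale (SE 0.62, adjusted p = 0.0311). The PSC call was lost without control 1, 2 or 4 or without PSC 13 or 14 (adjusted p from 0.0501 to 0.162). The call between the models was lost without PBC 7 or 8 or without PSC 13 or 14 (adjusted p from 0.0539 to 0.189), and its value was -2.17 without PBC 8. Cideb, the family member of hepatocytes, ranged over 18279 to 30445 normalised reads in PBC livers, 24800.0 to 25429 in PSC livers and 17085 to 26702 in control livers, with a log2 fold change of 0.17 (SE 0.22, adjusted p = 0.653, 95% interval -0.31 to 0.64) in PSC. Its model overlaps that of Nop9 over 36.3 percent of its span.

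Of 7 adipocyte markers, Lep and Slc7a10 were at 0 in all 10 livers, Adipoq reached at most 16.9 and Retn at most 6.57 normalised reads, and the summed level was 295 to 1003 in PBC livers, highest in PBC 9, 245 to 273 in PSC livers and 114 to 462 in control livers. Most of each sum was Adrb3, with 512, 257 and 899 normalised reads in PBC livers, 234, 214 and 219 in PSC livers and 234, 203, 411 and 95.8 in control livers. Plin4, a perilipin of fat and muscle, was 2753 in PBC 9 against 92.0 to 626 in the other 9 livers, and its log2 fold changes were 0.95 (SE 0.88, adjusted p = 0.529, 95% interval -0.95 to 2.84) in PBC and 1.04 (SE 0.88, adjusted p = 0.462, 95% interval -0.86 to 2.93) in PSC. Adipoq, Cfd and Adrb3 were also highest in PBC 9, at 16.9, 36.0 and 899. The other adipocyte markers were not: Retn was 0 in PBC 9 and highest in PSC 14, at 6.57. Trarg1 was highest in PBC 7, at 64.7 against 50.8 in PBC 9, and Lep and Slc7a10 were at 0 throughout. The part of fat tissue in the Plin4 level was not tested.

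Plin2, the main droplet coat protein of hepatocytes, had 17104, 20548 and 25609.9 normalised reads in PBC livers, 19007, 27354 and 26835 in PSC livers and 19737, 36754, 22638 and 19960.2 in control livers. The groups overlapped, and the log2 fold change was -0.20 (SE 0.25, adjusted p = 0.65, 95% interval -0.74 to 0.34) in PBC. In PSC it was 0.008799 (SE 0.25, adjusted p = 0.985, 95% interval -0.53 to 0.55), with a sign that changed under TMM scaling, equal totals, edgeR and DESeq2 and without control 1, 3 or 4 or PSC 13 or 14. Plin5, the perilipin that ties droplets to mitochondria, had 2059, 2106 and 4001 normalised reads in PBC livers, 3586, 7023 and 6421 in PSC livers and 2817, 3925, 2876 and 1959 in control livers. Its log2 fold change in PSC was 0.96 (SE 0.31, adjusted p = 0.0524, 95% interval 0.29 to 1.62), just over the threshold, and was called without control 2, without PBC 8 or 9, without PSC 11, with DESeq2, with a pseudocount of 10, with the stricter filter or with the compared groups alone in the fit (adjusted p from 0.0251 to 0.0491). Per kilobase, Plin5 held 16.8, 14.7 and 19.8 percent in PBC livers, 24.0, 29.9 and 28.5 percent in PSC livers and 19.3, 15.1, 17.6 and 14.1 percent in control livers of the summed level of Plin2, Plin4 and Plin5, so that PSC shares lay above all others.

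**Figure D4:**
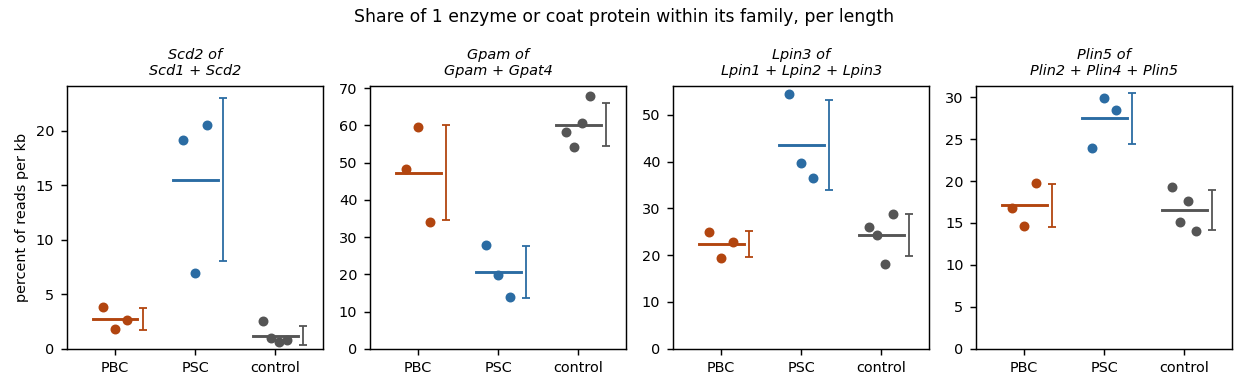
Share (percent of summed reads per kilobase of exon) of 1 member within its family in each PBC, PSC and control liver (points), with the group mean (line) and SD (bar). PSC livers have shares of Scd2 of 6.9 to 20.5 percent and of Gpam of 14.0 to 27.9 percent, outside the ranges of the other 7 livers, and no test was made of the shares. Shares of Acacb, Lpin1, Dgat1, Cidec and Elovl6 within their families were also computed and are not shown. In each of these the PSC range overlapped that of PBC or control livers.

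PBC livers were not uniform. For Elovl2, Scd1, Gpam, Lpin2 and Acacb, PBC 8 lay apart from PBC 7 and 9, which were close to each other. Without PBC 8, limma called 3 members higher in PBC (Fasn, Acacb and Dgat1) and 3 lower (Elovl2, Gpam and Lpin2). In the same fit 1795 of all 18208 tested models were higher and 1569 lower, against 1398 and 430 with PBC 8. The number of all models called became 3364 against 1828 with PBC 8. The sum of 7 neutrophil markers was 41315 in PBC 7, 36986 in PBC 8 and 108609.8 in PBC 9, and 362 to 6435 in control livers. By this sum PBC 9 lay apart, while PBC 7 and 8 were close to each other. The sum of 8 macrophage markers was 64825 to 110052 in PBC, highest in PBC 8, 53603 to 68129 in PSC and 18569 to 33485 in control livers. Their part in the member levels was not tested.

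The difference between the models was tested directly. The genes of synthesis and its control all had a positive log2 fold change in PBC against PSC, with a median of 1.06, and 8 of the 10 did not overlap between the groups, beside 14.6 percent of all models without overlap in that direction. The 5 members that were higher in PBC were Acly, Fasn, Acss2, Lpin1 and Pnpla3, and the 2 that were lower were Elovl7 and Cidec. Of these, Fasn and Pnpla3 kept their call in all 18 alternatives. For Elovl2, which fell in both models against control, the log2 fold change between them was 0.05 (SE 0.35, adjusted p = 0.955, 95% interval -0.71 to 0.81). For Scd2 it was -0.72 (SE 0.44, adjusted p = 0.394, 95% interval -1.66 to 0.23), and the 2 groups overlapped. The value for Scd1 was 1.91 (SE 0.50, adjusted p = 0.0677, 95% interval 0.84 to 2.98), called without control 1, with DESeq2 or with the compared groups alone in the fit (adjusted p from 0.00131 to 0.0438).

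Genes outside the 38 that supply or control the pathway were counted from 6 lists. Over all tested models 8.25 percent rose and 6.48 percent fell in PSC, and 7.6 and 2.34 percent did so in PBC. Of 8 genes for carbon and NADPH supply, 1 rose and 2 fell in PSC, which is 12.5 and 25 percent. Pcx, for pyruvate carboxylase, rose by 0.77 log2 units (SE 0.20, adjusted p = 0.0218). Pklr, the liver pyruvate kinase and a known ChREBP target, fell by 1.56 log2 units (SE 0.28, adjusted p = 0.00303). Idh1, the cytosolic isocitrate dehydrogenase, fell by 1.07 log2 units (SE 0.24, adjusted p = 0.0104). In PBC 1 rose and 0 fell. This was G6pdx, the entry enzyme of the pentose phosphate pathway, with 925, 983 and 969 normalised reads in PBC livers, 407, 270.1 and 317 in PSC livers and 321, 381, 585 and 461 in control livers. PBC livers lay above all others. G6pdx rose by 1.17 log2 units (SE 0.24, adjusted p = 0.0083) in PBC, and PBC exceeded PSC by 1.55 log2 units (SE 0.25, adjusted p = 0.00669). Of 10 genes of SREBP and LXR control, 0 rose and 1 fell in PSC, 10 percent of them, beside 6.48 percent of all models lower. In PBC 0 of these 10 passed. At an unadjusted p under 0.05, 1 of them was higher and 1 lower in PBC, a threshold that 16 percent of all models passed as higher and 10.5 percent as lower. Mid1ip1, the partner of the Thrsp product, fell by 1.17 log2 units (SE 0.32, adjusted p = 0.0299) in PSC, a call lost without control 1, without PSC 11, 13 or 14 or with libraries scaled to equal totals (adjusted p from 0.0508 to 0.105). Pcx lost its PSC call without control 1 or without PSC 13 or 14 (adjusted p from 0.055 to 0.106) and Idh1 without PSC 14 (adjusted p = 0.0545).

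Of 11 tested genes among other elongation and desaturation genes, 2 rose and 4 fell in PSC, 18.2 and 36.4 percent, beside 8.25 and 6.48 percent of all models. Elovl3, another elongase, had 234, 82.9 and 199 normalised reads in PBC livers, 43.2, 29.1 and 55.9 in PSC livers and 282, 232, 345 and 178 in control livers. It fell by 2.58 log2 units (SE 0.39, adjusted p = 0.00107) in PSC with no overlap, and PBC exceeded PSC by 1.90 log2 units (SE 0.41, adjusted p = 0.0311). Scd3, with 13.1, 9.70 and 8.22 normalised reads in PSC livers against 22.0, 65.5, 141 and 108 in control livers, fell by 2.64 log2 units (SE 0.58, adjusted p = 0.0103). The value was -2 with a pseudocount of 10. Hsd17b12, the reductase of the elongation cycle, fell by 0.72 log2 units (SE 0.16, adjusted p = 0.0113). In PBC 0 rose and 1 fell, Hacd3, a dehydratase of the same cycle, which fell by 1.00 log2 units (SE 0.27, adjusted p = 0.0326). Hacd3 is also 1 of the 4 that fell in PSC, by 1.02 log2 units (SE 0.27, adjusted p = 0.0225). Between the models its log2 fold change was 0.02 (SE 0.28, adjusted p = 0.971). Elovl4 was too low to be tested. Without PSC 14 the calls of Scd3 (adjusted p = 0.0537) and Hsd17b12 (0.0502) were lost, and that of Hsd17b12 also without PSC 13 (0.0712). Hacd3 lost its PBC call without control 1 or 4, without PBC 7 or 9, with libraries scaled to equal totals or with the compared groups alone in the fit (adjusted p from 0.054 to 0.149). Its PSC call was lost without PSC 11 or 14 or with libraries scaled to equal totals (adjusted p from 0.054 to 0.102). Elovl3 lost its call between the models without PBC 7 or 9, without PSC 11, 13 or 14 or with the compared groups alone in the fit (adjusted p from 0.0574 to 0.147).

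Of 11 other acyltransferases and acyl-CoA synthetases, 0 rose and 3 fell in PSC, 27.3 percent lower, beside 6.48 percent of all models. Acsl1 fell by 1.19 log2 units (SE 0.26, adjusted p = 0.0107), and Acsl4 fell by 1.02 log2 units (SE 0.25, adjusted p = 0.017). Acsl3, counted in a model merged with Utp14b, fell by 0.91 log2 units (SE 0.29, adjusted p = 0.0493). Of 12 tested droplet and lipolysis genes, 1 rose and 0 fell in PSC, 8.33 percent higher, beside 8.25 percent of all models. Hilpda, an inhibitor of the lipase made from Pnpla2, rose by 2.04 log2 units (SE 0.34, adjusted p = 0.00215), and Plin1 was too low to be tested. Of 12 genes of fatty acid uptake and lipoprotein export, 3 rose and 1 fell in PSC, 25 and 8.33 percent, beside 8.25 and 6.48 percent of all models. Fabp4, a fatty acid carrier of macrophages and adipocytes, rose by 1.24 log2 units (SE 0.25, adjusted p = 0.0059). Cd36, a fatty acid transporter, rose by 1.54 log2 units (SE 0.34, adjusted p = 0.0105). Mttp, which loads lipid onto apolipoprotein B, fell by 0.63 log2 units (SE 0.19, adjusted p = 0.0428). In PBC 0 of these 12 rose and 1 fell, Fabp2, an intestinal-type fatty acid carrier, which fell by 1.23 log2 units (SE 0.34, adjusted p = 0.0365). Between the models Fabp2 and Fabp4 were the 2 called genes of the list, both lower in PBC: the log2 fold change was -1.69 (SE 0.36, adjusted p = 0.0286) for Fabp2 and -1.13 (SE 0.26, adjusted p = 0.0432) for Fabp4. Acsl1 lost its call without PSC 14 (adjusted p = 0.074). Acsl4 lost its call without PSC 13 or 14 (adjusted p from 0.0562 to 0.0895). The call of Acsl3 was lost without control 1, 2 or 4, without PBC 7 or 9, without PSC 13 or 14, with edgeR, with TMM scaling, with libraries scaled to equal totals, with no filter on low values or with the compared groups alone in the fit (adjusted p from 0.0527 to 0.218). The call of Mttp was lost without control 2 or 4, without PBC 7, without PSC 11, 13 or 14, with libraries scaled to equal totals or with no filter on low values (adjusted p from 0.0538 to 0.155). Fabp2 lost its PBC call without control 3 or 4, without PBC 8 or 9, without PSC 13 or with the compared groups alone in the fit (adjusted p from 0.0505 to 0.135). Its call between the models was lost without PBC 8 or 9 or without PSC 13 or 14 (adjusted p from 0.0805 to 0.153). Fabp4 lost its call between the models without control 1, without PBC 7, 8 or 9 or without PSC 11, 13 or 14 (adjusted p from 0.0605 to 0.237). The macrophage sums given above were higher than in control livers in both PSC and PBC livers. In PBC against control the log2 fold change was 0.11 (adjusted p = 0.817) for Fabp4 and 0.68 (adjusted p = 0.228) for Cd36. The part of macrophages in the Fabp4 and Cd36 levels was not tested. In PBC the acyltransferase and droplet lists had 0 calls in either direction, with 1 and 3 members higher and 1 and 2 lower at an unadjusted p under 0.05, beside the same 16 and 10.5 percent of all models.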

How the data were processed

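RNA from whole livers of 10 mice went into poly(A) libraries sequenced as paired reads, per the labels' protocols. The submitters' processing notes name STAR 2.4.0, the mm10 build, FastQC, Picard, SAMtools and DESeq2; the sources used here name no counting tool and no use of strand. The deposited signal holds reads for each gene model that the authors normalised with DESeq2. Each library had 1 step of which 100 percent of its values were whole multiples within 0.1, so reads were recovered for edgeR and DESeq2, which called 1570 and 2578 models in PBC against control and 2612 and 3807 in PSC against control.

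The test was limma 3.58.1 with a trend, on log2(value + 1), fitted to the 10 libraries together and models of value 10 or more in at least 3 libraries, at an adjusted p of 0.05, in R 4.3.3; edgeR 4.0.16 and DESeq2 1.42.0 were alternatives. Intervals are at 95 percent, over the spread between mice. Folds of low genes are understated by the pseudocount of 1. Each library is a mouse by its label. Levels per kilobase used the union of exons of GENCODE M21. limma and edgeR, but not DESeq2, were also run on simulated data with means and dispersions taken from these data. Changes were set only in genes of higher mean, so that run does not bear on genes as low as Cidea and Elovl7. Its outcome is not given here. The members, lists and tests were chosen with earlier results of these data known. Every member called in at least 1 comparison is given with its value in each liver and its called changes. Acaca, Srebf1 and Plin2 are added. Uncalled changes of called members are given for some comparisons only. From each other list up to 3 genes of smallest adjusted p are named per comparison, some with values of another comparison. The values of Acacb, Pnpla5, Plin4 and Plin5, and the pairs of PBC 7 and 9, were singled out after they were seen.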

Additional observations from a re-analysis of the deposited data

Results flagged for a closer look

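In the 4 control livers, 1 liver stood far from the others for 6 of the 38 members. The measure was the gap to the nearest other liver over the range of the 4, on normalised reads without logs. Its chance rate of 1 in 20, or 1.9 of 38, assumes normally spread values. Whether 6 is an excess cannot be judged, because all 6 were high values and no share over all models was computed. The members are also not independent of each other: control 4 was high for 4 of the 6. Its normalised reads were 37192 against 9697 to 13573 in the other 3 control livers for Fads2, 12877 against 4489 to 5499.9 in the other 3 control livers for Gpam, 6111 against 3597 to 3814 in the other 3 control livers for Gpat4 and 61.1 against 7.70 to 15.5 in the other 3 control livers for Mogat1. Pnpla5 had 761 in control 3 against 28.5 to 109 in the others, and Plin2 had 36754 in control 2 against 19737 to 22638. Gpam was called lower in PSC also without control 4.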

How the results depend on the processing

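Of 18 alternatives, 8 changed a setting and 10 left out 1 library. Of the 19 members called in PSC against control, 6 kept their call in all 18 (Acly, Scd2, Elovl7, Gpam, Lpin2 and Pnpla3). Cidea could not be tested in 4 of the 18 and is left out of this. In PBC against control, members higher and lower numbered 2 and 3 with DESeq2, 2 and 1 with a pseudocount of 10 or with the filter at 50, 1 and 0 with the compared groups alone and 0 and 0 with equal totals, against 0 and 1 as reported. In PBC against PSC they numbered 9 and 4 with DESeq2, 8 and 3 with a pseudocount of 10 and 9 and 3 with the compared groups alone, against 5 and 2. Cidea, described above with no test, is 1 of those lower in each of these settings and is not among the 2. All models called in PBC against control numbered 1218 with equal totals and 841 with the compared groups alone, against 1828. In PBC against PSC all models called numbered 1213 with DESeq2, 605 with a pseudocount of 10 and 544 with the compared groups alone, against 412. Leaving out 1 library gave 0 to 3 members higher and 0 to 3 lower in PBC, 2 to 5 higher and 7 to 15 lower in PSC, and 2 to 7 higher and 0 to 2 lower in PBC against PSC; the fewest lower in PSC came without PSC 14. All models called then ranged over 736 to 3364, 925 to 3813 and 104 to 563. Equal totals moved the median of all models in PBC by -0.124, to -0.119, and the higher share of calls in PBC was 66.8 percent with TMM and 70.0 percent with equal totals, 64.6 percent with DESeq2 and 89.4 percent with the compared groups alone, against 76.5 percent; in PBC against PSC it was 36.0 percent with equal totals against 49.5 percent. Signs that changed were all in uncalled values. Plin2 in PSC was -0.0624 with edgeR, -0.04505 with DESeq2, -0.0161 with TMM and -0.0203 with equal totals, and -0.0838 to 0.22 with 1 library left out, negative without control 1, 3 or 4 or PSC 13 or 14. With 1 library left out, Plin2 in PBC was -0.35 to 0.00442, positive without control 2, and Scd1 in PBC was -0.54 to 0.31, negative without control 1 or PBC 8. Scd1 in PBC was -0.0557 with TMM and -0.12 with equal totals. No paired analysis was possible because the groups share no replicate numbers. The cause of these shifts was not tested.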

Other observations

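The spread among livers of a group was about that of other genes in PBC and control livers and wider in PSC livers. The median SD on the log2 scale was 0.43 over the 38 members and 0.424 over all tested models in PBC livers, 0.346 and 0.259 in PSC livers, and 0.451 and 0.412 in control livers. Summed over the 10 genes of synthesis and its control, normalised reads were 150610.1 to 233515 in PBC livers, 83599.8 to 117412 in PSC livers and 115719.8 to 390817 in control livers, with Thrsp the largest part of the high control sums.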
